A study of Danio rerio with 6 samples.

Results

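Genes of the proteasome and of antigen presentation were compared between the retinas of wild-type zebrafish and of zebrafish homozygous for the stl628 allele of thrb, the gene for thyroid hormone receptor beta. Members were chosen by symbol: the proteasome genes psma to psmg, beta-2-microglobulin, the peptide transporter and tapasin genes, major histocompatibility complex (MHC) class I and class II genes and the invariant chain gene cd74. The class I gene mhc1uba was left out of the members by the same choice. Of 9211 genes in the authors' deposited table, 50 were members, 43 of the constitutive proteasome and 7 of antigen presentation.

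Both groups were whole retinas of AB* background fish aged 6 months, with wild-type and mutant fish from the same clutches and 3 samples in each group. Each sample joined 2 retinas of a male and 2 retinas of a female, so a sample is a pool of fish. The table gives the mean normalized count of each genotype and no values per sample, so the spread between samples enters only through the deposited standard errors. The mutants were homozygous throughout life and were sampled as adults, and in whole retina fewer cells of a type and less RNA per cell cannot be told apart. As a check of the labels, the mean of thrb itself was 413 in mutants against 3301 in wild-type retina in the authors' deposited table. The tissue was checked on retinal markers: both red opsins fell in the mutant, opn1lw1 from 51643 to 177 and opn1lw2 from 41322 to 61.1 in the authors' deposited table. The green opsin opn1mw2 (log2 fold change 0.42) and the blue opsin opn1sw2 (0.37) rose in the authors' deposited table. Of these, opn1sw2 did not pass when adjusted over 13700 genes (Wald test adjusted p = 0.052). The UV opsin opn1sw1 (0.32) and the rod opsin rho (0.27), named after their values were seen, were also above 0. They did not pass (Wald test adjusted p = 0.058 and 0.14). The other listed markers, rlbp1a and glula, stood at 0.089 and -0.027 in the authors' deposited table.

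The proteasome degrades proteins tagged with ubiquitin. Its core is a barrel of outer alpha rings and inner beta rings, and the beta subunits psmb5, psmb6 and psmb7 carry the proteolytic sites. A regulatory particle caps the barrel, where a ring of ATPases unfolds substrates and a lid removes their ubiquitin. Interferon-gamma induces an alternative set of catalytic subunits, which form the immunoproteasome. Peptides made by either form are carried into the endoplasmic reticulum by the TAP transporter and loaded on class I molecules, which pair with beta-2-microglobulin. Class II molecules present peptides from endocytosed proteins, and in the healthy retina of mammals microglia are their main carriers.

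No member passed the test in either direction. In the Wald test of the deposited log2 fold change against no change, two-sided and adjusted by Benjamini-Hochberg over all 9211 genes, 0 of 50 members passed an adjusted p of 0.05, where 2.08% of all genes passed. Lower calls made up 1.21% of all genes and higher calls 0.879%. At an unadjusted p under 0.05, 1 member passed the Wald test, psme4b, against 8.29% of all genes. The authors' own test, which asks for a change beyond 2-fold, also called 0 members, against 0.076% of all genes. Its deposited p-value was 1 for each of them, as for all but 36 of the 9211 genes. Any estimate under 2-fold gets that value, so this outcome adds nothing to the estimates themselves.

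The estimates were small as well as uncalled. All 50 members had a point estimate under 1.2-fold in either direction, as did 87.8% of all genes in the authors' deposited table. The 95% intervals, which are 1.96 standard errors wide on either side, excluded a change of 1.5-fold or more for 48 of 50 members, against 81.4% of all genes. The exceptions were psmd10 and mhc1zba, with intervals reaching 0.70 and 0.59 on the log2 scale, both with mean counts under 100. No member's interval reached 2-fold. These intervals use the normal distribution, and the wider ones of a t distribution with 4 degrees of freedom were not computed. The median standard error of the members was 0.12 against 0.14 over all genes in the authors' deposited table. It was 0.11 for the constitutive genes and 0.18 for the antigen presentation genes. By these medians, precision was better than over all genes on the constitutive side only. Single genes departed from this, with the smallest standard error in b2ml (0.086) and the largest in psmd10 (0.29).

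To pass the Wald test a statistic of 3.28 was needed, the smallest among the called genes. For the members this corresponded to an estimated change of between 1.22-fold (b2ml) and 1.91-fold (psmd10), with a median of 1.30-fold. The median was 1.296-fold for the constitutive genes and 1.499-fold for the antigen presentation genes, against 1.386-fold over all genes. The absence of calls is thus weaker evidence for the antigen presentation genes. These fold values are the estimates needed to pass, so true changes of about this size or smaller could be missed.

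**Figure D1:**
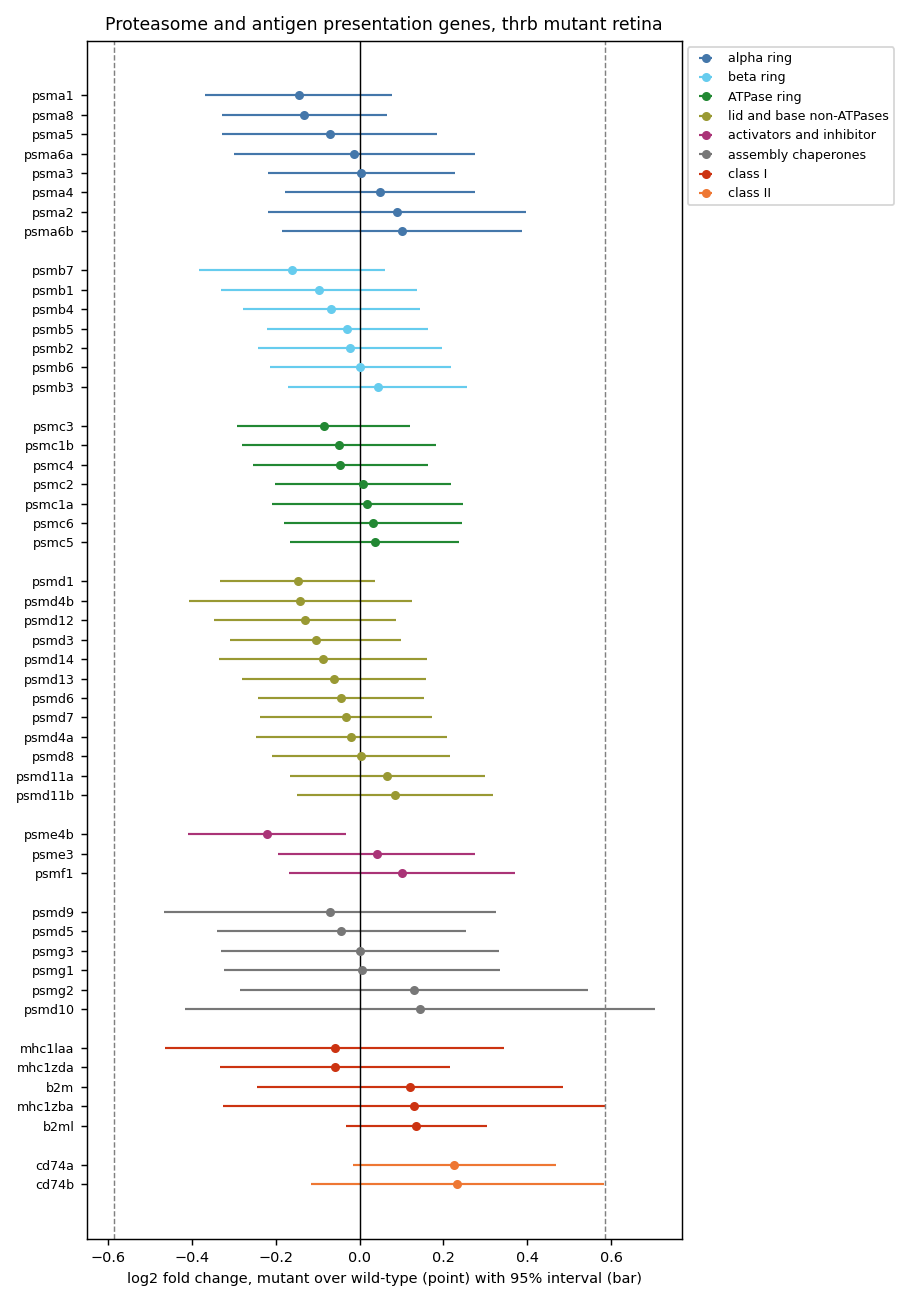
Log2 fold change of each of the 50 members, mutant over wild-type (points), with 95% intervals (bars), grouped by role; dashed lines mark 1.5-fold. All intervals except that of psme4b include 0, and those of psmd10 and mhc1zba cross a dashed line.

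In the alpha ring, which gates entry to the core, 4 of 8 members lay above 0 and 4 below, with a median log2 fold change of -0.0045. The lowest was psma1, with a mean normalized count of 763 in wild-type and 691 in mutant retina in the table the authors deposited (log2 fold change -0.14, SE 0.11, 95% interval -0.37 to 0.078). The highest was psma6b, at 302 in wild-type and 324 in mutants in the authors' deposited table (0.10, SE 0.15, interval -0.18 to 0.39). These extremes of the ring both had intervals that include 0. The member psma8 is listed by RefSeq with psma7 as another name, and stood at 886 and 809 in wild-type and mutant in the authors' deposited table; it was singled out after its value was seen.

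The catalytic beta subunits did not pass either. For psmb5, the chymotrypsin-like subunit, the authors' deposited table gives 1143 in wild-type and 1121 in mutants (log2 fold change -0.029, SE 0.098). The caspase-like subunit psmb6 had 607.8 and 608.1 in the authors' deposited table (0.0019, SE 0.11), and the trypsin-like subunit psmb7 had 620 and 555 (-0.16, SE 0.11). The intervals were -0.22 to 0.16 for psmb5, -0.21 to 0.22 for psmb6 and -0.38 to 0.062 for psmb7. As a ratio of mutant to wild-type, the lowest of these bounds, that of psmb7, is 0.767, and the highest, that of psmb6, is 1.16. Among the other beta subunits, which are structural, psmb3 was the highest of the ring (0.044, SE 0.11 in the authors' deposited table), and 5 of 7 beta members lay below 0 (median -0.029).

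The ATPases of the regulatory particle lay close together, with an SD of 0.048 across their log2 fold changes. These 7 genes ran from -0.085 (SE 0.11) for psmc3 to 0.036 (SE 0.10) for psmc5 in the authors' deposited table, with a median of 0.0090. Of 12 non-ATPase members 9 lay below 0, with a median of -0.052. The lowest was psmd1, the large scaffold of the base, at 1507 in wild-type and 1361 in mutants in the authors' deposited table (-0.15, SE 0.095, interval -0.33 to 0.038). The highest was the lid subunit psmd11b, at 479 and 507 in the authors' deposited table (0.084, SE 0.12). Added up without error, the normalized counts of the core subunits in mutants were 97.2% of the wild-type sum. Those of the 19 regulatory particle genes were 97.0%, and those of all genes 98.6%.

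Among the proteins that act on the core from outside, psme4b had the only interval that excluded 0. This gene encodes a homologue of the mammalian nuclear proteasome activator of the PA200 type. Its mean was 7395 in wild-type and 6346 in mutants in the table the authors deposited (log2 fold change -0.22, SE 0.096, interval -0.41 to -0.033). Its unadjusted p in the Wald test was 0.021, and its Benjamini-Hochberg adjusted p over all genes was 0.37, so psme4b was not called. The inhibitor gene psmf1 stood at 329 and 353 in the authors' deposited table (0.10, SE 0.14).

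Assembly chaperones, which build the core and the ATPase base and leave the finished particle, included the least abundantly counted member. That was psmd10, which encodes gankyrin, with 49.2 in wild-type and 54.2 in mutants in the authors' deposited table (0.14, SE 0.29). It is listed because 1 group mean reached the floor of the table, where the larger mean of a gene is never below 50.04. At the other end of this group stood psmd9, at 127 and 121 in the authors' deposited table (-0.071, SE 0.20). The 6 chaperone genes had a median of 0.0037, and 4 of them lay above 0.

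**Figure D2:**
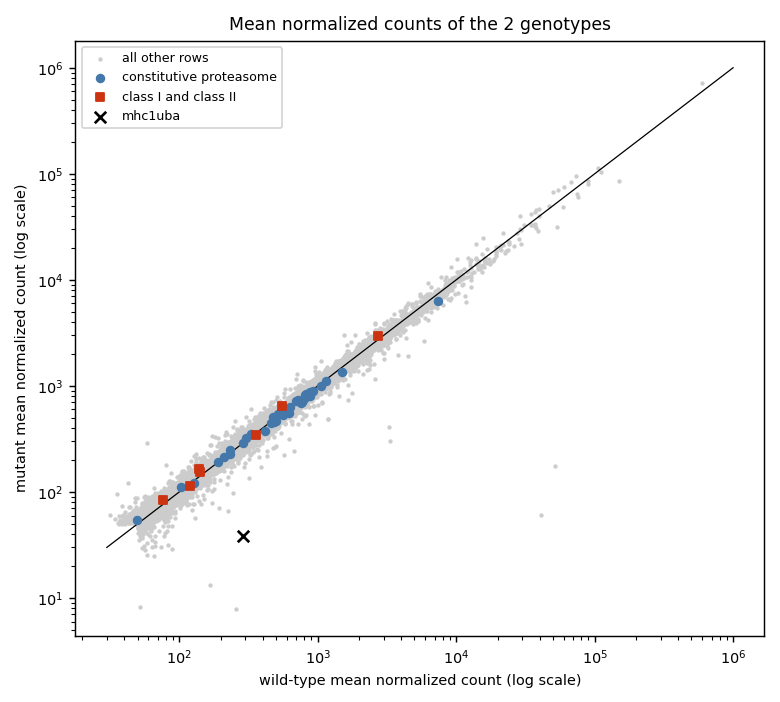
Mean normalized count in mutant (vertical, log scale) against wild-type retina (horizontal, log scale) for each gene, with the 43 constitutive proteasome genes (circles), the 7 antigen presentation genes (squares) and mhc1uba (cross) over all other genes (grey); the line marks equal means. All members lie close to the line, whereas mhc1uba lies below it, at 38.6 against 290.

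No class I member passed the test. Beta-2-microglobulin is represented by b2m, at 142 in wild-type and 156 in mutants in the table the authors deposited (log2 fold change 0.12, SE 0.19), and b2ml, at 2712 and 2980 (0.14, SE 0.086). Their fold changes differed by 0.015 (95% interval -0.39 to 0.42). For b2ml, which had the smallest standard error of all members, the interval ran from -0.033 to 0.30.

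Class I heavy chains of zebrafish include those of the U, Z and L lineages. The L lineage gene mhc1laa stood at 119 in wild-type and 114 in mutants in the authors' deposited table (-0.059, SE 0.21). Of the Z lineage, mhc1zba stood at 76.8 and 83.8 (0.13, SE 0.23) and mhc1zda at 361 and 347 (-0.058, SE 0.14) in the authors' deposited table. None of these 3 genes passed. In contrast, the U lineage gene mhc1uba, which is no member, went from 290 to 38.6 (-2.94, SE 0.23 in the authors' deposited table). It has a row only through its wild-type mean, so its estimate is subject to the table's floor. Its fall exceeded the fold changes of the 3 listed heavy chains by between 2.88 and 3.07 on the log2 scale, given as a description because mhc1uba was known to stand apart. Reads of such multigene families cannot always be assigned to a single copy, so their separate counts are uncertain.

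The invariant chain genes, whose product blocks the peptide groove of class II molecules until they reach the endosome, had the highest estimates of all members. The mean of cd74a was 554 in wild-type and 647 in mutants in the authors' deposited table (0.23, SE 0.12, interval -0.017 to 0.47). The mean of cd74b was 140 and 164 in the authors' deposited table (0.23, SE 0.18, interval -0.12 to 0.58). The Wald test did not pass for either gene (adjusted p = 0.69 for cd74a and 0.96 for cd74b). Of 25 fixed microglia and leukocyte markers, 4 were measured, and their summed mean counts were 741 in wild-type and 835 in mutants. Most of this difference was apoc1l, at 520 in wild-type and 600 in mutants in the authors' deposited table, and the other 3 markers summed to 221 and 236. One of them, coro1a, is listed only through its mutant mean (56.5, against 44.7 in wild-type, in the authors' deposited table), which reached the floor of the table. The most abundant were apoc1l (0.20, SE 0.11) and the macrophage receptor csf1ra (0.015, SE 0.21) in the authors' deposited table. Of the 4 markers, 0 passed, where 2.08% of all genes did. The part of such cells in the cd74 values was not tested. Of 11 endothelial markers 6 were measured and 0 passed, against the same 2.08% of all genes, with 5 above 0 and a median of 0.12. Among them kdr stood at -0.093 (SE 0.11) and esama at 0.15 (SE 0.12) per the authors' deposited table. The endothelial marker pecam1, counted among the 5 above 0, has a row only through its mutant mean (51.5, against 48.4 in wild-type, in the authors' deposited table).

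Constitutive and immune members could be set side by side only in part. The constitutive proteasome genes had a median log2 fold change of -0.024, with 19 of 43 above 0, and the 7 antigen presentation genes one of 0.13, with 5 above 0. Over all genes the median was 0.00063 and 50.1% lay above 0. The medians differed by 0.15, a description for which no test was made. Spread among the constitutive genes, an SD of 0.084, was below their own median standard error of 0.11. The same held for the antigen presentation genes, with an SD of 0.12 and a median standard error of 0.18.

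**Figure D3:**
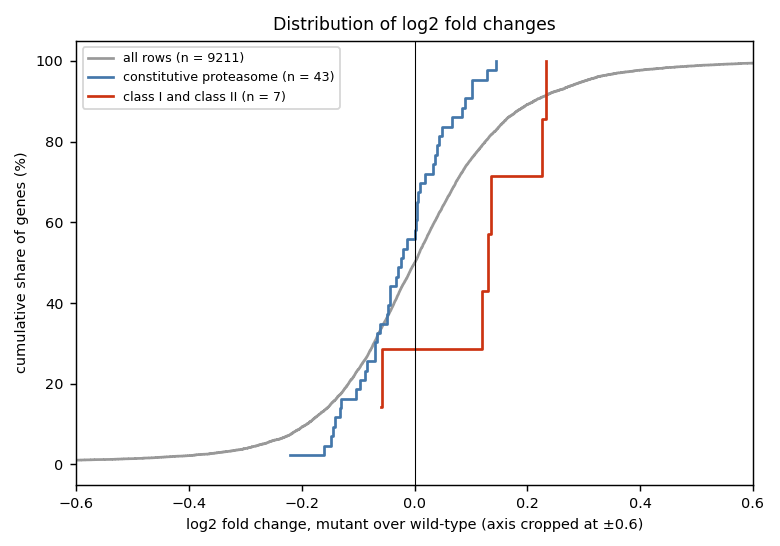
Cumulative share of genes (%) by log2 fold change, mutant over wild-type, for all 9211 genes, the 43 constitutive proteasome genes and the 7 antigen presentation genes; the axis is cropped. The constitutive curve rises steeply around its median of -0.024, and 5 of the 7 antigen presentation genes lie at or above 0.12.

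The planned contrast of each catalytic subunit with its immune counterparts could not be made. In RefSeq (assembly GRCz12tu) 9 genes were counted by symbol as immunoproteasome, among them psmb8a, psmb9a, psmb10, psmb11a, psmb11b, psme1 and psme2. Being counted by symbol does not show that each is induced by interferon. Of these 9, 0 are among the rows, as are 0 of 6 transporter and tapasin genes and 0 of 13 class II genes. Of 20 class I genes other than mhc1uba 3 are listed, and of 48 constitutive proteasome genes 43. The genes without a row, psmd2 among them, are not analysed here, and nothing is known from the table of their change. The table lists only genes whose larger mean reached about 50. The RefSeq symbols belong to another assembly than that of the data, and the reason for each missing row was not tested.

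No difference was detected within pairs of duplicated genes. Across the 5 pairs of members named a and b, 0 differed in the Wald test of the difference, with adjusted p over the pairs of 0.97 for each. The differences ran from -0.11 (interval -0.52 to 0.29) for psma6a minus psma6b to 0.12 (interval -0.23 to 0.47) for the ubiquitin receptor psmd4a minus psmd4b. For psmc1, psmd11 and cd74 they were 0.068, -0.018 and -0.0072, with intervals reaching at most 0.43 from 0. Errors of the paired genes were taken as independent.

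By RefSeq gene order, 5 members share the chromosome of thrb, namely psmb2, psmb4, psmd3, psmd4a and psmg2. Their log2 fold changes ran from -0.10 to 0.13 and 0 passed, with a median of -0.024 against 0.0010 for the other 45 members. Of all 375 genes of the table placed on this chromosome, 23 were called (6.13%), 13 lower and 10 higher, and 68 (18.1%) had an unadjusted p under 0.05, shares above the 2.08% and 8.29% of all genes. On the same chromosome mhc1uba has the immune genes psmb13a, psmb8a, psmb12, psmb9a and tap2a as its next 5 protein-coding neighbours on one side and tapbp.2 on the other, all without a row. The nearest listed neighbours were daxx, 4 genes away (0.11, SE 0.14), and brd2a, 6 genes away (-0.044, SE 0.10), in the authors' deposited table. Beyond brd2a lay hsd17b8, at -0.96 (SE 0.30) per the authors' deposited table, which did not pass (Wald test adjusted p = 0.051). It has a row only through its wild-type mean, 66.4 against 34.1 in mutants in the authors' deposited table, so its estimate is subject to the table's floor. Farther out on that side rxrba (-0.079), sdha (0.064) and oxr1b (-0.20) did not pass in the Wald test. Neither did flot1a (0.10), which lay beyond daxx on the other side. These neighbours were looked up after their values were seen. Gene content here differs between zebrafish haplotypes, so this order need not be that of the fish studied.

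Genes working with the proteasome were taken from a list of partners. Of 36 fixed symbols 25 were measured, including ubiquitin genes, shuttle factors, deubiquitinases and transcription factors of proteasome genes. Over all genes, 2.08% passed the Wald test and 8.29% had an unadjusted p under 0.05, shares at which a list of 25 holds few calls. Of the 25 measured partners, 0 passed and 1 had an unadjusted p under 0.05 in the Wald test, with a median of -0.042. The most abundant were the ubiquitin gene ubc, at 10846 in wild-type and 12088 in mutants in the authors' deposited table (0.16, SE 0.13), and vcp, a segregase that extracts ubiquitinated proteins (-0.046, SE 0.086). The gene with the low unadjusted p was ngly1, which encodes a deglycosylating enzyme that activates the proteasome regulator Nrf1 in mammals, named after its value was seen. It stood at 259 and 205 in the authors' deposited table (-0.33, SE 0.16, Wald test adjusted p = 0.53).

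Of 48 fixed symbols of peptide loading and the interferon-gamma pathway, 18 were measured. The pathway was thus covered only in part, with no row for ciita, nlrc5, irf1a, irf1b or stat1b. At the shares of all genes, 2.08% passing and 8.29% with an unadjusted p under 0.05, a list of 18 holds few calls. Of the 18 measured genes, 0 passed and 0 had an unadjusted p under 0.05 in the Wald test, with a median of 0.023. The most abundant were canx, the chaperone calnexin that folds class I chains (0.079, SE 0.090), and nfyc, a subunit of a factor on class II promoters (-0.18, SE 0.091), in the authors' deposited table. The signal transducers stat1a and stat2, named after their values were seen, had log2 fold changes of 0.23 (SE 0.13) and 0.21 (SE 0.11) per the authors' deposited table, with adjusted p of 0.70 and 0.63 from the Wald test.

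**Figure D4:**
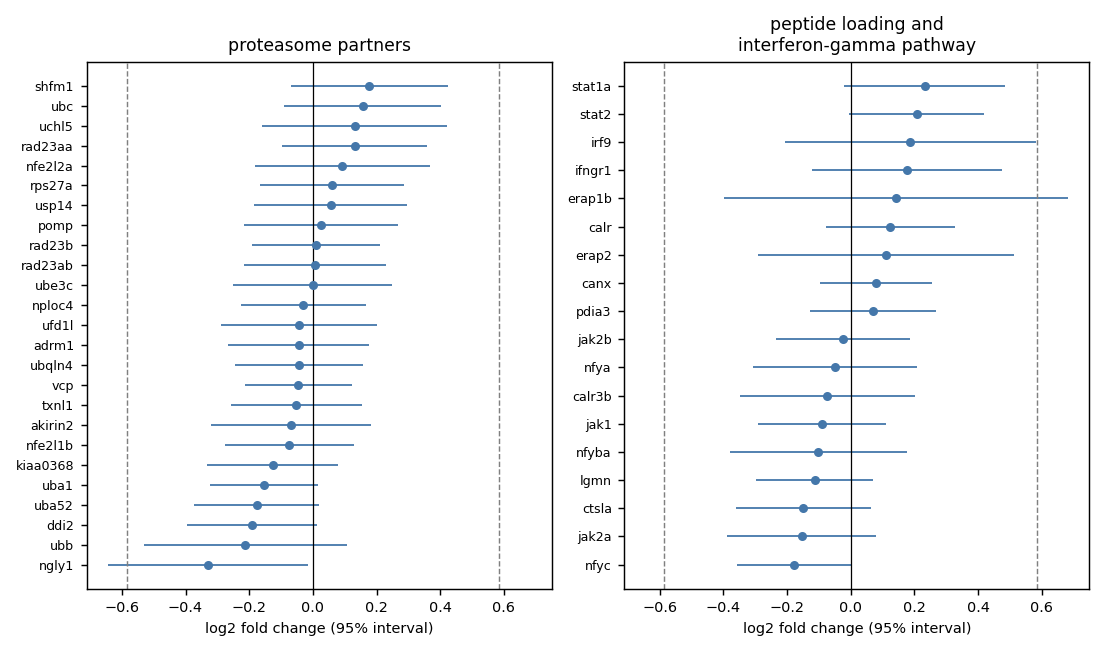
Log2 fold change, mutant over wild-type (points), with 95% intervals (bars), for 25 proteasome partners (left) and 18 genes of peptide loading and the interferon-gamma pathway (right); dashed lines mark 1.5-fold. The interval of ngly1 alone excludes 0, and its adjusted p was 0.53.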

How the data were processed

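Per the submitters' processing notes the tools were STAR 2.7.2b, cutadapt 1.9.1, DESeq2 1.18.1 with R 3.4.3, and HTSeq 0.9.1, on danRer10, with no order or settings. The sources used here do not give the annotation. The data are 1 table that the authors deposited, whose group means are a signal, counts divided by size factors and averaged over a genotype. Its log2 fold change and standard error come from the authors' fit, per the file headers. The deposited score and p-value test a change beyond 2-fold, the score being 0 for any smaller change. Read depth is unknown. The labels' protocols (poly-A selection) name no step that marks strand. Whether strand was kept is thus unknown, and overlapping antisense genes may not be told apart. Replicates are pools of fish.

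The Wald test divided the deposited log2 fold change by its standard error, with the normal distribution as reference (Python 3.11.15, scipy 1.17.1). It was run on simulated data drawn from a normal distribution with the deposited standard errors. That run checks the code only, and cannot tell whether the normal reference suits 3 samples in each group. Members, lists and tests were chosen with earlier results of these data known. Named genes were all antigen presentation members, the catalytic subunits, the highest and lowest of each constitutive role, and the called or 2 most abundant genes of each outside list. Of the members, 49 matched RefSeq by symbol and 1 by synonym. Counts are not divided by transcript length, so ranks of abundance and sums over genes refer to counts and not to transcript levels.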

Additional observations from a re-analysis of the deposited data

How the results depend on the processing

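The count of members called stayed at 0, in both directions and for constitutive and immune members alike, under each of the following settings. They were a t distribution of 4 degrees of freedom, adjustment over 13700 genes and mean counts of at least 100 or 500. Centring on the median gene, an adjusted p under 0.10 and the deposited test were the others. The number 13700 is the smaller of 2 counts that fit the deposited adjusted p-values. Over the same settings the calls among all genes ranged from 1 to 268, against 192, so with the t distribution hardly any gene could pass. Neither outside list gained a call under these settings, which were applied to those lists after seeing the data. The median of the constitutive genes stayed between -0.032 and -0.021, and that of the antigen presentation genes between 0.13 and 0.18. The value of 0.18 came from mean counts of at least 500, where only b2ml and cd74a of the antigen presentation genes remained. The 5 paired differences gave 0 calls at an adjusted p under 0.10, with the t distribution and with summed standard errors. Of the genes named, thrb, mhc1uba, opn1lw1, opn1mw2 and opn1sw2 did not pass with the t distribution. No paired analysis was possible because the file used gives group means only, and for the same reason no replicate could be left out. An immunoproteasome median was not run, as none of its genes has a row.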
